A study of Mus musculus with 6 samples.

Results

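Collagens, laminins and matrix glycoproteins were followed in cultured mouse biliary epithelial cells (cholangiocytes), which form the lining of bile ducts. Members were all rows of the count table whose mouse symbol names a collagen chain (Col, digits, a, digits) or a laminin chain (Lama, Lamb or Lamc with 1 digit). Fn1, Thbs1, Tnc, Nid1, Nid2, Hspg2, Agrn, Sparc, Lox and Loxl1 to Loxl4 were added by name. This rule reads symbols and no measured value, but members were chosen with earlier results of these data known. It found 68 of the 32061 genes in the table. RNA of 6 samples was sequenced, 3 labelled competent for primary cilia, grown without 4OHT (-4OHT), and 3 labelled depleted of primary cilia, given 4OHT (+4OHT). 4OHT is the usual short name of 4-hydroxytamoxifen, which is widely used to activate a tamoxifen-dependent Cre recombinase. The table's columns call the groups PC WT and PC KO, and the deleted allele, strain, sex and age are not given in the labels used here. All 6 samples came from bile ducts picked from enzyme-digested liver, grown for 4 to 5 passages as organoids in Matrigel, a basement membrane extract, and then moved to plates coated with 1 mg/ml collagen. 4OHT and cilium depletion coincided in every sample and cannot be told apart. Whether the 3 samples of a group were separate cultures or animals is not stated, so p-values measure only the spread among these 6 libraries, part of which may be technical.

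Epithelial cells rest on a basement membrane, a thin sheet built from a laminin network and a collagen IV network that nidogens and the proteoglycans perlecan and agrin tie together. A laminin is a trimer of an alpha, a beta and a gamma chain, and a collagen is a trimer of alpha chains wound into a triple helix. Fibrillar collagens such as collagen I form the cable-like fibres of connective tissue, which in fibrotic liver come mainly from activated stellate cells and portal fibroblasts. Lysyl oxidases crosslink collagens, and adhesive glycoproteins such as fibronectin and thrombospondin-1 connect matrix to cell surface receptors.

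Total counts ran from 26293486 to 36998935 per sample, and a floor of 3 counts corresponded to 0.0797 to 0.119 CPM (counts scaled to library size with TMM factors, the usual CPM unit). Such floors cover counting error only. Among biliary markers Krt7, Krt8 and Krt18 stood at 2471 to 5429 CPM in group means, but Krt19 at 12.5 CPM in competent and 8.33 CPM in depleted cells. The 12 biliary markers summed to 17379 to 18341 CPM in competent and 15992 to 17424 CPM in depleted samples, 3 of them higher and 6 lower. Markers of stellate cells and fibroblasts, 14 genes that include no matrix member, summed to 2.49 to 3.05 CPM in competent and 1.59 to 2.28 CPM in depleted samples. In that list Lum had no count in any sample, and Dcn, Pdgfra and Pdgfrb each had 3 counts in the competent samples together and 0, 6 and 6 counts in the depleted samples. Of its 3 tested genes 1 passed, Acta2, which fell 3.80-fold from 138 to 31 counts (adjusted p = 0.000286). Acta2 had 51, 29 and 58 counts in the competent and 10, 14 and 7 counts in the depleted samples. Its competent counts alone were enough for it to be tested, so its call is only a description. The 10 endothelial markers summed to 0.235 to 0.876 CPM, with Tie1 and Clec4g at 0. The 8 markers of macrophages and other leukocytes summed to 45.5 to 51.3 CPM, of which Csf1r gave 47.2 and 43.2 CPM in the group means (lower, adjusted p = 0.0496). Of the Csf1r exon length 15.1% lies under Hmgxb3 on the other strand. The other tested marker of the leukocyte list, Cd68, rose 1.57-fold from 3.42 to 5.41 CPM (adjusted p = 0.000457). Of its 6 untested markers Ptprc had the most counts, 16 in competent and 17 in depleted samples, and Adgre1 had 0 and 1. The 8 hepatocyte markers summed to 214 to 237 CPM in competent and 240 to 248 CPM in depleted samples, with Cyp3a11 at 0. Hnf4a alone gave 203 and 227 CPM of these sums (higher, adjusted p = 0.00578), whereas Ttr fell from 16.0 to 11.3 CPM (adjusted p = 0.00135) and Alb stood at 2.61 and 2.57 CPM. The part of these cell types in the results was not tested. Of 4 mesothelial markers Msln was abundant (1133 and 1103 CPM) and Wt1 low (3.77 and 3.69 CPM), and neither differed past the threshold, while the third tested one, Upk3b, fell 2.18-fold from 4.62 to 2.11 CPM (adjusted p = 4.6e-05). Wdr35, the targeted gene by knowledge of the study and not by its labels, had 1211, 1148 and 1200 counts in the competent and 739, 914 and 925 counts in the depleted samples, a log2 change of -0.25 (adjusted p = 0.00245) in a total that does not resolve a deleted exon.

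Upstream sequence is shown for the members with a mean level of at least 10 FPKM (CPM per kilobase of exon) that rose more than 1.5-fold and have an entry in the RefSeq promoter table (GRCm38.p6). Nid1, which fell, is set beside them by choice and not by a rule. Each stretch runs from 250 to 51 bases before the RefSeq start, 5′ to 3′ on the gene's strand, and capitals mark the GC box letters GGGCGG on either strand.
Hspg2 (chr4:137468553-137468752, plus strand): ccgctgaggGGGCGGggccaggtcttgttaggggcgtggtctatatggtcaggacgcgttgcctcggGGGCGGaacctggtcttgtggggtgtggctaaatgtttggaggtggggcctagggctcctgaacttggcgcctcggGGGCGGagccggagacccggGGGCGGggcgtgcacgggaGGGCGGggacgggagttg
Lama5 (chr2:180225910-180226109, minus strand): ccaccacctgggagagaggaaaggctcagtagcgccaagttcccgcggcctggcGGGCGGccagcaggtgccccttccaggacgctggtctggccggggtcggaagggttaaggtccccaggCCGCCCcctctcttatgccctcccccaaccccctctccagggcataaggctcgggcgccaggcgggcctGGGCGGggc
Loxl4 (chr19:42612857-42613056, minus strand): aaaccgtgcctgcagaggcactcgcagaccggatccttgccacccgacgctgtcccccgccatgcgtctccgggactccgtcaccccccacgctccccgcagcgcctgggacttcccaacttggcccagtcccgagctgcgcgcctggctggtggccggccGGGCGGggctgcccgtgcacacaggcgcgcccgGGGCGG
Nid1 (chr13:13437352-13437551, plus strand): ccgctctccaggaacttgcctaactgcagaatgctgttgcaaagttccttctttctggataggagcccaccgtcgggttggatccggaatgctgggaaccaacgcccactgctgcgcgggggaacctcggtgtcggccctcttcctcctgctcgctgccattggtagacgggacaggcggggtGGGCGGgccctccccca
The Hspg2 stretch held 5 GC boxes, that of Lama5 3, that of Loxl4 2 and that of Nid1 1. Promoter windows of 300 bases, from 250 before to 50 after the start, were found for 25 of the 42 tested members (30 windows). GGGCGG was in 70.0% of these windows and in 35.7% of all 32851 windows in the table. The EGR motif GCGNGGGCG, which can overlap a GC box, was in 20% against 5.55%, the AP-1 motif TGANTCA in 3.33% against 7.81%, and CCAAT in 26.7% against 37.4%, each searched on both strands. The member windows were richer in G and C, with a median of 61.5% against 52.7%. GGGCGG was in 7 of 10 windows of higher members, 5 of 8 of lower members and 9 of 12 of members not called. Matches per window ran across the calls, with 12 in 1 window of Agrn, which did not pass, and 0 in that of Lamb2, which was higher. Among other members that fell, Col18a1 had 3 in 1 window and 0 in the other, and Col4a1 had 1. A match to these letters is a description and not evidence of binding.

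Many of the 68 members were hardly transcribed. Of these genes, 42 passed the filter on low counts and were tested, 27 had a mean of at least 1 FPKM and 15 of at least 10 FPKM. The 26 untested members had at most 11 counts in any sample. They included the fibrillar collagen genes Col1a2 and Col3a1, which had no count in any sample, as did Col9a1 and Col13a1. Col1a2 and Col3a1 encode the second chain of collagen I and the only chain of collagen III, the bulk collagens of scar tissue. Lox had 25 counts in the competent and 8 in the depleted samples, Col11a1 28 and 11, and Col17a1, the hemidesmosome collagen of stratified epithelium, 8 and 10. Col4a6, Lama1, Lama2 and Lamc3 were also below the filter. The untested members reached a mean of at most 0.0368 FPKM.

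The matrix genes that were well expressed belonged mainly to the basement membrane. Thbs1 had the highest level per length, 117 FPKM in competent and 246 FPKM in depleted cells. Lama5 followed with 79.0 and 135 FPKM, Fn1 with 76.3 and 105 FPKM, and Agrn with 76.6 and 78.8 FPKM. Lamb2 (63.1 and 78.1 FPKM), Col18a1 (63.3 and 57.0 FPKM) and Col4a1 (59.8 and 54.6 FPKM) came next. Lamb3, Col4a2, Lamc1, Hspg2, Loxl4, Loxl2 and Nid1 lay between 12.1 and 39.6 FPKM in both groups. In competent cells the libraries of Lama5, Agrn and Fn1 overlapped in FPKM, as did those of Lamb3 and Col4a2, so their order is within the spread.

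**Figure D1:**
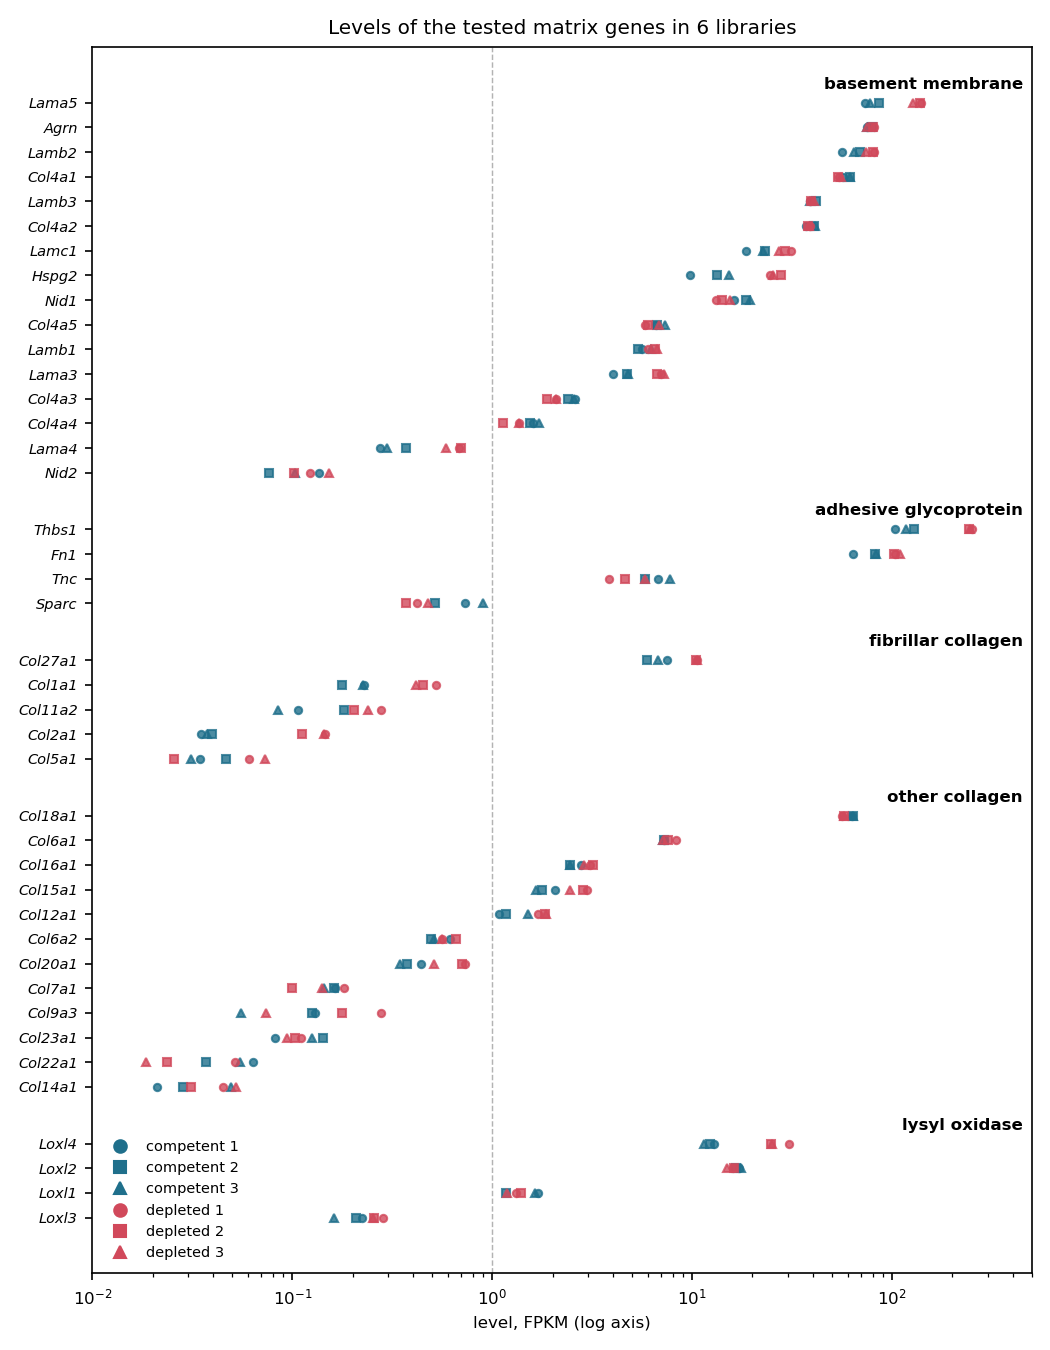
Level per length (FPKM, log axis) of the tested matrix genes (1 is not shown) in the 3 competent and 3 depleted libraries, 1 point per library, ordered by mean level within each role. Basement membrane genes, Thbs1, Fn1 and Col18a1 fill the upper range, and the dashed line marks 1 FPKM.

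The groups were compared with edgeR's quasi-likelihood test fitted on all 13839 tested genes, at a Benjamini-Hochberg adjusted p below 0.05. Fold and log2 changes are depleted relative to competent cells. Of the 42 tested members, 18 were higher (42.9%) and 9 lower (21.4%), where 34.9% of all tested genes were higher and 34.3% lower. Counted in either direction, 64.3% of the tested members changed against 69.2% of all tested genes. The 3 samples of each group did not overlap for 26 members (61.9%), where 72.5% of all tested genes did not. The share of matrix genes that changed was thus near that of the transcriptome. Their median log2 change was 0.26, against -0.006 for all tested genes. It was 0.16 without competent replicate 2 and 0.16 without depleted replicate 3. Among the members, 6 rose more than 2-fold and none fell that far, where 7.38% of all tested genes rose and 2.49% fell past 2-fold. A member with few counts could pass the filter through the higher group alone, so these counts describe the tested members only. In bulk RNA a change in a cell's output and a change in the share of cells that make a transcript cannot be told apart.

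Summed over the 68 members, matrix transcripts took 5777, 6588 and 6416 CPM in the competent samples and 8465, 8356 and 8272 CPM in the depleted samples. The groups did not overlap, with means of 6261 ± 427 and 8364 ± 96.8 CPM (SD, n = 3; two-sided exact permutation p = 0.1, the smallest that 3 against 3 samples allow). Thbs1, Lama5 and Fn1 supplied 83.3% of the difference. Competent replicate 1 had the lowest sum.

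Members were long genes, and over all tested genes length moved with the comparison. Spearman's correlation of exon length with log2 change was 0.295 over all tested genes of known length and 0.0939 over the 42 tested members. The median exon length was 7017 nt among tested members and 4269 nt among all tested genes, and 26 of the 42 lay in the longest of 4 equal length classes of tested genes (6675 nt and above). Over all tested genes the median log2 change was -0.23 in the shortest class and 0.21 in the longest, where 51.3% were higher and 21.8% lower. With a length trend removed from each library, 16 members were higher and 13 lower, with a median of 0.17. All 16 of these and 9 of the 13 had been called in the same direction without the correction. The part of length in single results was not tested further, and calls that it changes are named with the genes.

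**Figure D2:**
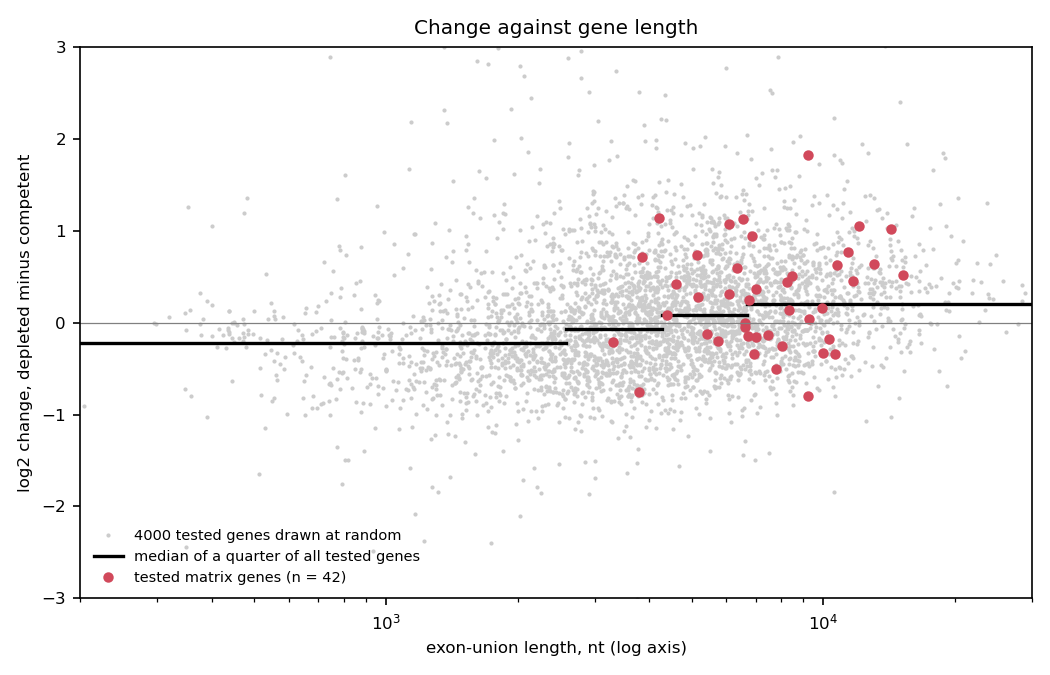
Log2 change (depleted minus competent) against exon-union length (nt, log axis) for the 42 tested matrix genes (red) and a random subset of all tested genes (grey, within the axis limits). Black lines give the median of each of 4 equal length classes of all tested genes, from -0.23 in the shortest to 0.21 in the longest, and 26 matrix genes lie in the longest class.

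Of 8 tested laminin chains 6 were higher (75%), 1 lower (12.5%) and 1 short of the threshold, the median log2 change being 0.37. Over all tested genes 34.9% were higher and 34.3% lower, and in the longest length class 51.3% and 21.8%. The tested laminin genes had a median exon length of 9094.5 nt, and a share over 8 genes is coarse. Lama5 (chromosome 2, 180176373 to 180225859, GRCm38, minus strand) encodes the alpha-5 chain, the main laminin alpha chain of many mature epithelial basement membranes. It had 834, 980 and 884 CPM in competent and 1590, 1561 and 1445 CPM in depleted samples. Every depleted sample lay above every competent sample, and the gene rose 1.70-fold (log2 change 0.77, SE 0.061, adjusted p = 1.01e-07). Its partner chains rose less, Lamb2 (beta-2) 1.24-fold and Lamc1 (gamma-1) 1.36-fold (adjusted p = 0.000995 and 0.00013). Lamb1 (beta-1) was 1.12-fold higher (adjusted p = 0.0341). That call did not hold with upper-quartile scaling or without any of competent replicates 1 and 2 and depleted replicates 2 and 3, and its log2 change was -0.03 with the length trend removed.

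Lama3 and Lamb3 encode the alpha-3 and beta-3 chains, which occur together in the laminin that anchors hemidesmosomes, and only Lama3 of this pair passed the test. Lama3 stood at 43.0, 50.8 and 51.3 CPM in competent and 75.3, 71.8 and 77.2 CPM in depleted samples, with no overlap, and rose 1.54-fold (adjusted p = 1.14e-06). Lamb3 did not pass (262 ± 10.6 and 262 ± 5.84 CPM, SD, n = 3; 95% interval of the log2 change -0.10 to 0.09), but was lower with the length trend removed (log2 change -0.11, adjusted p = 0.0265). Lama4, better known from vessel and muscle basement membranes, was low at 3.32, 4.47 and 3.58 CPM in competent samples. It reached 8.24, 8.39 and 7.05 CPM in depleted samples, 2.07-fold more (adjusted p = 7.76e-06).

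Lamc1 (chromosome 1, 153218922 to 153332786, minus strand) had 154, 191 and 188 CPM in competent and 258, 241 and 225 CPM in depleted samples, without overlap. Lamb2 made up 58.1% ± 1.98 of the summed beta-chain FPKM in competent and 62.9% ± 1.73 in depleted samples, and Lamb3 36.6% ± 1.70 and 31.9% ± 1.40 (SD, n = 3). Lama5 held 94.2% ± 0.337 and 94.6% ± 0.352 of the alpha chains, and these shares overlapped. For the Lamb2 and Lamb3 shares the groups did not overlap, with two-sided exact permutation p = 0.1 each, adjusted p = 0.15 over 15 shares computed, so neither can pass a threshold of 0.05 in this design.

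**Figure D3:**
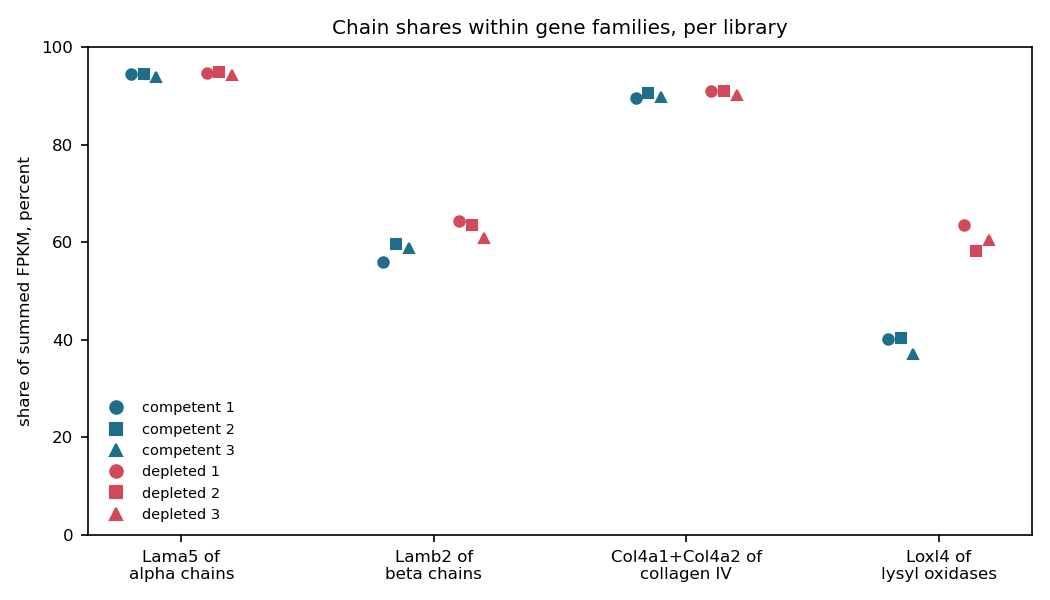
Share of summed FPKM (percent) that a chain takes within its family in each of the 6 libraries, 1 point per library. Lamb2 and Loxl4 lie above the competent libraries in all 3 depleted libraries, while the Lama5 shares overlap.

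The collagen IV network changed little. None of its 5 tested chains rose, 3 were lower and 2 stayed short of the threshold, the median log2 change being -0.14. Of all tested genes 34.9% were higher and 34.3% lower. Col4a1 and Col4a2, whose products form the common collagen IV trimer, together held 90.0% ± 0.5 of collagen IV FPKM in competent and 90.7% ± 0.446 in depleted samples. These 2 genes start head to head on chromosome 8, their first exons overlapping by 22 bases. Col4a1 had a log2 change of -0.13 (adjusted p = 0.019), a call lost without competent replicate 3 or depleted replicate 2 (adjusted p = 0.063 and 0.0822). Col4a2 did not pass (log2 change -0.04, 95% interval -0.15 to 0.06), but did with the length trend removed (log2 change -0.16, adjusted p = 0.00409).

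Col4a3 and Col4a4, which join Col4a5 in a second trimer best known from the kidney glomerulus, were expressed at low levels. They also lie head to head, 71 bases apart on chromosome 1. Col4a3 had 25.9, 23.9 and 25.7 CPM in competent and 20.7, 18.6 and 20.6 CPM in depleted samples, a fall of 1.26-fold (adjusted p = 0.000407). Col4a4 had 17.0, 16.5 and 18.2 CPM against 14.4, 11.9 and 14.4 CPM, a fall of 1.27-fold (adjusted p = 0.00227). Neither gene's groups overlapped. Col4a5 was 46.2 ± 2.62 and 41.8 ± 3.56 CPM and did not pass (log2 change -0.14, adjusted p = 0.0691). Leaving out competent replicate 1 or 2, or depleted replicate 3, brought it past the threshold (adjusted p = 0.0482, 0.0484 and 0.0084). So did upper-quartile scaling (adjusted p = 0.0161), testing without the filter on low counts (adjusted p = 0.0257), a replicate block (adjusted p = 0.0218) and the correction for length (log2 change -0.25, adjusted p = 0.00269).

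The proteins that link the networks diverged. Hspg2 (chromosome 4, 137468769 to 137570630, plus strand) encodes perlecan, the large heparan sulphate proteoglycan of basement membranes. It rose 2.03-fold, from 139, 191 and 218 CPM in competent to 351, 396 and 364 CPM in depleted samples (log2 change 1.02, SE 0.12, adjusted p = 3.48e-06). The competent samples spread widely but all lay below the depleted ones. Nid1 encodes nidogen-1, which binds both laminin and collagen IV. It fell 1.27-fold, from 112, 129 and 135 CPM to 90.9, 97.4 and 108 CPM (adjusted p = 0.000676), and the groups did not overlap. Nid2 was thinly counted (0.544 and 0.652 CPM, from 58 and 61 counts in all) and did not pass. Agrn, encoding agrin, had 696, 739 and 697 CPM in competent and 754, 744 and 697 CPM in depleted samples and did not pass (log2 change 0.04, 95% interval -0.06 to 0.14). With the length trend removed Agrn was lower (log2 change -0.14, adjusted p = 0.00843).

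**Figure D4:**
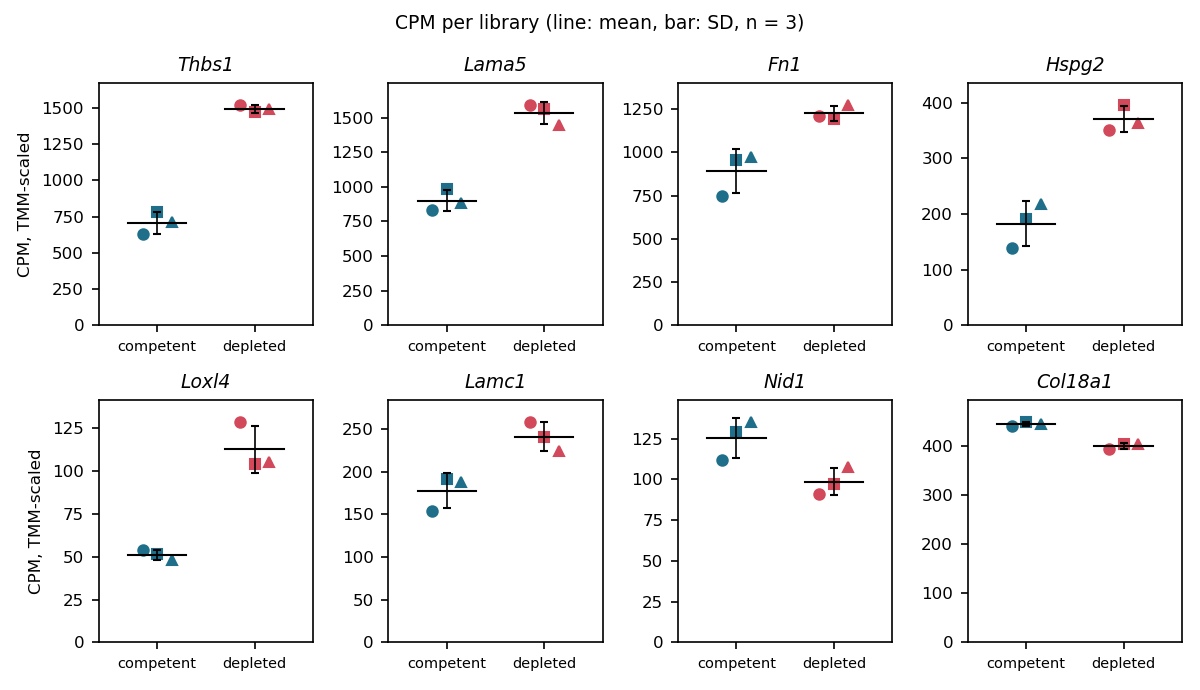
CPM (TMM-scaled) of 8 matrix genes in each library, with axes from 0, the mean as a line and the SD as a bar (n = 3 per group). Thbs1, Lama5, Fn1, Hspg2, Loxl4 and Lamc1 are higher and Nid1 and Col18a1 lower in all 3 depleted libraries.

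All 4 adhesive glycoprotein genes changed, 2 up and 2 down, where 69.2% of all tested genes changed in either direction. Thbs1 (chromosome 2, 118111876 to 118127133, plus strand) encodes thrombospondin-1, a matricellular protein that can activate latent TGF-beta. It had 630, 784 and 710 CPM in competent and 1521, 1469 and 1491 CPM in depleted samples and rose 2.11-fold (log2 change 1.08, SE 0.066, adjusted p = 8.42e-09). Fn1, encoding fibronectin, rose 1.37-fold, from 748, 956 and 972 CPM to 1212, 1192 and 1275 CPM (adjusted p = 0.000177). For both genes the groups were separate, and competent replicate 1 was the lowest library. Tnc, encoding tenascin-C, an anti-adhesive glycoprotein of remodelling tissue, fell 1.41-fold (adjusted p = 0.00258). Its samples overlapped slightly, at 52.4, 44.8 and 60.2 CPM against 29.9, 35.9 and 44.9 CPM. Sparc, encoding a collagen-binding glycoprotein, fell 1.69-fold at a low level, from 2.76, 1.95 and 3.40 CPM to 1.58, 1.40 and 1.81 CPM (adjusted p = 0.00695).

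Of 11 fibrillar collagen genes 5 were tested, of which 4 rose and 1 did not pass, where 34.9% of all tested genes were higher. Only Col27a1 of these 5 was above 1 FPKM (6.71 and 10.5 FPKM). It encodes a fibrillar collagen best known from cartilage and had 97.3, 77.2 and 87.8 CPM in competent and 137, 136 and 137 CPM in depleted samples. The groups were separate and the rise was 1.56-fold (adjusted p = 1.16e-06). Col1a1, which encodes the main chain of collagen I, had 51, 41 and 56 counts in competent and 87, 95 and 96 counts in depleted samples, a rise of 2.18-fold (adjusted p = 7.37e-05). Its groups were separate, in cells in which Col1a2 had no count. The cartilage collagen gene Col2a1 had 0.323, 0.368 and 0.345 CPM in competent and 1.35, 1.03 and 1.33 CPM in depleted samples, from 37 and 114 counts in all. Its ratio of summed counts, scaled for library size, was 3.56, with a 95% exact counting interval of 2.44 to 5.31 (adjusted p = 3.89e-05). Col11a2, whose product forms mixed fibrils with collagen II, had 0.734, 1.25 and 0.584 CPM against 1.90, 1.40 and 1.64 CPM. These 91 and 151 counts give a ratio of 1.92 with an interval of 1.47 to 2.52 (adjusted p = 0.00724), and neither gene's groups overlapped. Col5a1 had 34 and 42 counts and did not pass.

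In the transcriptome 34.9% of tested genes were higher and 34.3% lower. Among 27 other collagen genes 12 were tested, of which 4 were higher (33.3%), 1 lower (8.33%) and 7 did not pass. Col18a1, the basement membrane collagen from which endostatin is cut, was by far the most abundant of them and fell slightly, from 441, 448 and 445 CPM to 394, 403 and 404 CPM (log2 change -0.15, adjusted p = 0.00382). The samples within each group lay close together and the groups were separate. Its relative Col15a1 rose 1.51-fold, from 13.0, 11.3 and 10.5 CPM to 19.0, 18.0 and 15.6 CPM (adjusted p = 8.85e-05). The other 3 rises were in collagens that attach to the surface of fibrils. Col12a1 rose 1.43-fold (16.4, 17.8 and 23.0 CPM against 25.8, 28.1 and 28.2 CPM, adjusted p = 0.00041) and Col20a1 1.67-fold (2.26, 1.92 and 1.78 CPM against 3.76, 3.62 and 2.63 CPM, adjusted p = 0.00226). Col16a1 rose 1.19-fold (18.8, 16.5 and 16.5 CPM against 20.7, 21.5 and 19.4 CPM, adjusted p = 0.00704), a call lost with the length trend removed (adjusted p = 0.116).

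Collagen VI, which forms beaded filaments, was represented by Col6a1 (31.6, 31.8 and 31.2 CPM against 36.2, 33.3 and 31.1 CPM) and Col6a2 (4.49 ± 0.543 and 4.93 ± 0.451 CPM, SD, n = 3). Neither passed (adjusted p = 0.216 and 0.347), and its other chain genes, Col6a3 to Col6a6, were below the filter. Col7a1, the anchoring fibril collagen, had a log2 change of -0.17 (95% interval -0.66 to 0.31). Col9a3, Col14a1, Col22a1 and Col23a1 had at most 72 counts in either group and did not pass. Col22a1 passed only without depleted replicate 1 (log2 change -1.29, adjusted p = 0.0258) and Col9a3 only without depleted replicate 3 (log2 change 1.12, adjusted p = 0.0269).

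In the lysyl oxidase family Loxl2 had the highest FPKM in competent cells and Loxl4 in depleted cells. Loxl4 (chromosome 19, 42593982 to 42612813, minus strand) had 53.8, 51.5 and 48.1 CPM in competent and 128, 104 and 106 CPM in depleted samples. It rose 2.20-fold (log2 change 1.14, SE 0.074, adjusted p = 1.63e-08), with depleted replicate 1 the highest. Loxl2, which also oxidises collagen IV, had 92.3, 89.4 and 94.7 CPM in competent and 85.9, 87.0 and 80.5 CPM in depleted samples. Its groups were separate by a small margin (log2 change -0.13, adjusted p = 0.0242), and the call was lost without competent replicate 3 or depleted replicate 3 (adjusted p = 0.0801 and 0.101). Per length, Loxl4 took 39.2% ± 1.84 of lysyl oxidase FPKM in competent and 60.7% ± 2.71 in depleted samples, and Loxl2 55.1% ± 1.65 and 35.7% ± 2.40 (SD, n = 3; two-sided exact permutation p = 0.1 for each, adjusted p = 0.15 over the 15 shares). Loxl1 (4.93 and 4.28 CPM) did not pass, except without competent replicate 2 (log2 change -0.36, adjusted p = 0.025). Loxl3 (0.911 and 1.22 CPM) did not pass either, although its groups did not overlap.

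**Figure D5:**
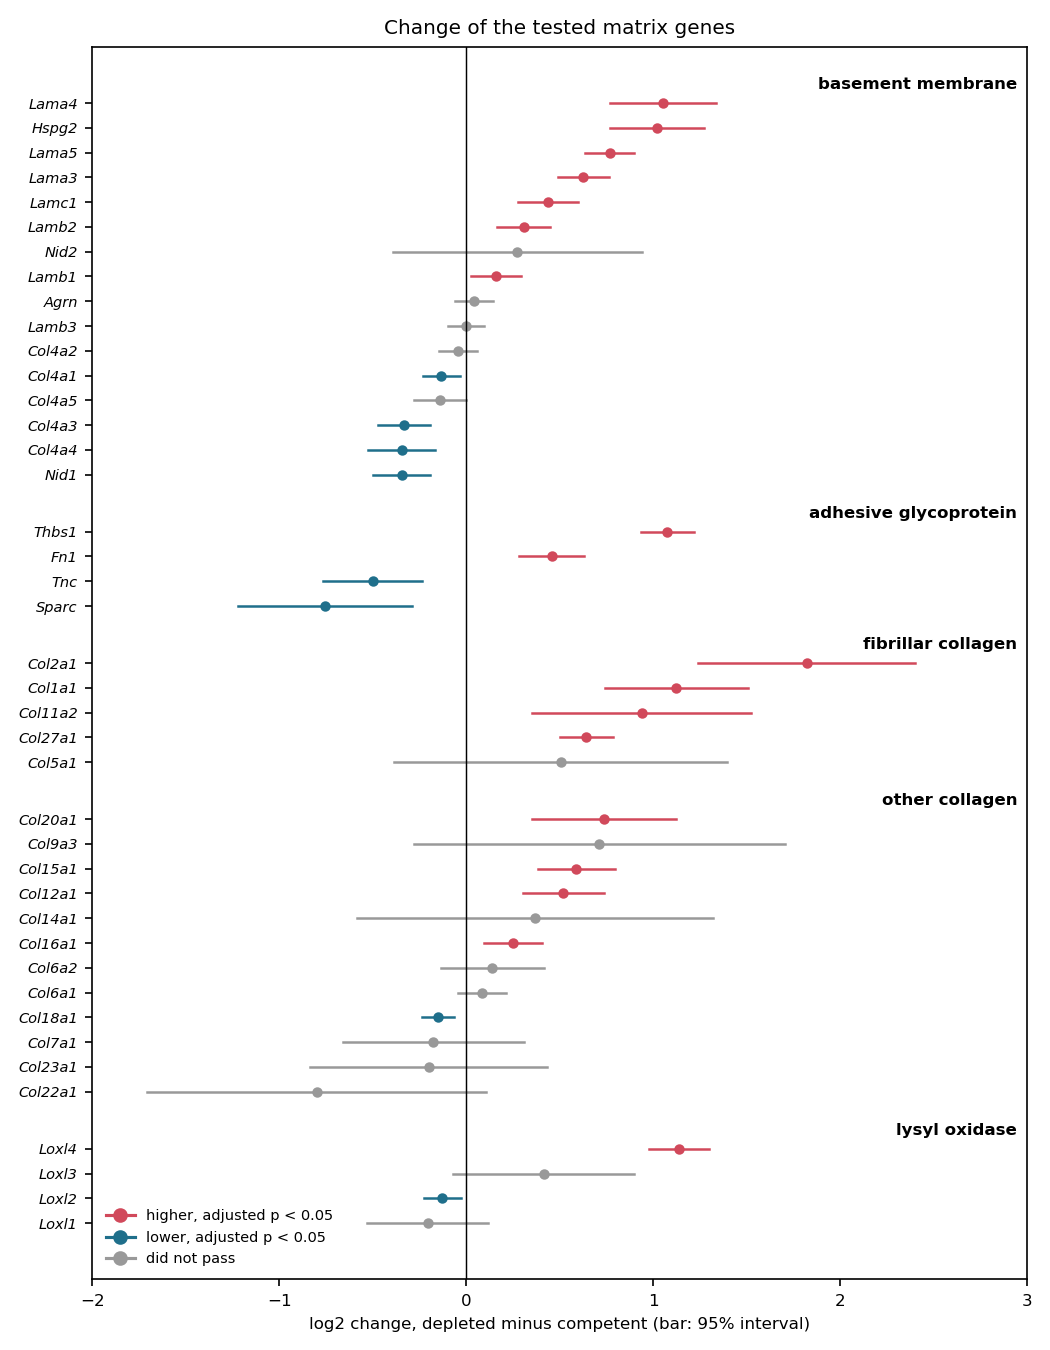
Fitted log2 change (depleted minus competent) of the tested matrix genes (1 is not shown) with its 95% interval, ordered within each role, with colour for the call at an adjusted p below 0.05. The changes past the threshold run from -0.75 (Sparc) to 1.82 (Col2a1), and the widest intervals belong to the thinly counted collagens.

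The genes that fold, secrete and process collagen went more often down than up. A list of 28 such genes had 24 tested members, with 3 rises (12.5%), 11 falls (45.8%) and 10 short of the threshold (median log2 change -0.22). This list and those of the next paragraphs were chosen with earlier results of these data known, so their shares are descriptions. Over all tested genes 34.9% were higher and 34.3% lower. In either direction 58.3% of the tested list was called, against 69.2% of all tested genes. Crtap, a partner of collagen prolyl 3-hydroxylase, fell 2.50-fold from 56.6 ± 3.87 to 22.6 ± 0.924 CPM (SD, n = 3; adjusted p = 5.67e-10), and P3h4, another subunit of collagen-modifying complexes, fell 1.65-fold. Ppib, encoding cyclophilin B, fell 1.5-fold, but 25% of its exon length lies under Snx22 on the other strand, and whether counting used strand is not given in the sources used here. Adamts14, encoding a procollagen N-propeptidase, rose 1.64-fold. Serpinh1, the collagen chaperone HSP47, was at 0.911 and 0.616 CPM and did not pass. Without depleted replicate 3 the count of rises was 5.

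The 21 matrix receptors listed gave 18 tested genes, with 3 rises (16.7%), 8 falls (44.4%) and 7 short of the threshold (median log2 change -0.11). In either direction 61.1% of them were called, against 69.2% of all tested genes (34.9% higher and 34.3% lower). Sdc4, the heparan sulphate proteoglycan syndecan-4, rose 2.07-fold from 488 ± 10.1 to 1011 ± 6.43 CPM (SD, n = 3; adjusted p = 1.22e-10). Itgb4, the laminin-binding beta-4 integrin of hemidesmosomes, rose 1.58-fold. Dag1, the laminin receptor dystroglycan, fell 1.58-fold and Itgb1, the common beta-1 integrin, 1.40-fold, from 1061 ± 27.8 to 759.7 ± 12.7 CPM.

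The 33 other basement membrane and matrix genes gave 22 tested genes, with 4 rises (18.2%), 6 falls (27.3%) and 12 short of the threshold (median log2 change 0.03). In either direction 45.5% of them were called, against 69.2% of all tested genes (34.9% higher and 34.3% lower). Tnxb, encoding tenascin-X, rose 2.21-fold from 13.8 ± 4.04 to 30.5 ± 3.07 CPM (SD, n = 3; adjusted p = 1.72e-05). Efemp2, encoding fibulin-4, fell 2.04-fold and Npnt, encoding the basement membrane protein nephronectin, 1.62-fold. Fbn1, encoding fibrillin-1, is the thinnest of the 4 genes called higher, with 3, 5 and 11 counts in competent libraries against 11, 14 and 16 in depleted ones. It was tested only because of its counts in the depleted samples, so its call is no evidence of a rise, and 20.1% of its exon length overlaps an opposite-strand gene. The count of rises was 1 without competent replicate 1, 2 without competent replicate 2, 2 without depleted replicate 1 and 2 with the length trend removed.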

How the data were processed

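Gene counts were deposited by the authors as raw whole numbers, with a column per sample and no normalization. The submitters' processing notes list FastQC 0.11.9, MultiQC 1.3, cutadapt 1.16, STAR 2.7.1a, featureCounts, DESeq2 1.34.0 and the mouse build GRCm38, while the annotation and the strand setting are not given in the sources used here. Per the labels' protocols, poly-A RNA went into a directional NEBNext Ultra II library kit. Column names were matched to titles by replicate number, with WT read as competent and KO as depleted, and 0 columns belonged to other samples. Positions, exon-union lengths and overlaps came from GENCODE M21 (GRCm38).

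The fit used edgeR 4.0.16 (filterByExpr, TMM, glmQLFit, glmQLFTest) in R 4.3.3 with the group as the only term, and DESeq2 1.42.0 and limma-voom 3.58.1 were alternatives. SEs were taken from the log2 change and its F statistic. FPKM is TMM-scaled CPM per kilobase of exon union, and it does not know which isoform is used. The fitting code was tested on simulated counts. Counts of same-group libraries differed by more than sampling noise (chi-square divided by its degrees of freedom 5.33 to 9.44), so none was treated as a duplicate deposit, which does not show that they came from separate cultures. The values of 1 tested member are not reported here, although it enters the counts. Members and lists were chosen with earlier results of these data known. Within each role up to 4 rises, up to 4 falls and the 2 genes of highest level were given by sample, and in each pathway list up to 4 genes of largest change were named. Lamc1 by sample and Serpinh1 lie outside that rule and were chosen after their values were seen.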

Additional observations from a re-analysis of the deposited data

How the results depend on the processing

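Of the 42 tested members, 29 kept their direction and call under every scaling, test, filter, block, length and leave-one-out alternative in which they were tested, 16 of them higher, 7 lower and 6 not passing. Members higher numbered 16 to 18 and members lower 7 to 13 over these alternatives. At an adjusted p below 0.01 they were 17 and 7. When calls at 0.05 also had to exceed 1.5-fold, 12 were higher and 1 lower, and 3936 of all genes were called. The median log2 change of tested members was 0.17 with the length trend removed and 0.17 with a filter of 1 CPM in 3 samples, which leaves 35 members (without Nid2, Col2a1, Col5a1, Col9a3, Col14a1, Col22a1 and Col23a1, which so have no call there), and 0.16 to 0.26 when single samples were left out. Same-numbered samples of the groups did not deviate together (correlations -0.028, 0.013 and -0.016), so they share only a number. With the replicate number as a block, 18 members were higher and 10 lower (Col4a5 in addition), and the median was 0.27. No member had over 20% opposite-strand overlap, so leaving such members out removed none. Some log2 changes near 0 turned sign. Agrn was -0.0087 with upper-quartile factors and -0.14 with the length trend removed, where Lamb1 was -0.033 and Col6a2 -0.017. Lamb3 was 0.00051 with DESeq2-style factors in edgeR, 0.00058 with DESeq2 and 0.0041 with the CPM filter, and with single samples left out it ran from -0.026 to 0.025. Col7a1 ran from -0.37 to 0.022 with single samples left out, above 0 without depleted replicate 2. The cause was not tested. Depth limits the 9 tested members with fewer than 100 counts in a group.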
